A study of Mus musculus with 8 samples.

Results

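The comparison described here is a difference of differences: the log2 change from WT to Msx2-KO in sorted hair follicle stem cells (HFSCs) minus the same change in sorted epidermal stem cells (EpdSCs), gene by gene, over 8 libraries of total RNA from mouse dorsal skin in telogen, the resting phase of the hair cycle. Its members are the 12011 nuclear protein-coding genes found by symbol in the count tables of both cell types, of 23861 genes in the HFSC table and 16231 in the EpdSC table. Each library was scaled to a sum of 1000000 over these genes, 1 was added and log2 was taken, so every level below is in such scaled units (CPM over the shared genes) and every change is on the log2(CPM + 1) scale, which understates the change of weakly expressed genes. A positive difference means that the log2 change was higher in HFSCs than in EpdSCs, whatever the sign of each.

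There were 4 groups of 2 libraries. WT HFSCs came from mice 2 months old, while Msx2-KO HFSCs, WT EpdSCs and Msx2-KO EpdSCs came from mice 6 months old. HFSCs were sorted as CD34+ CD49f+ Sca-1- cells, whereas the EpdSC gate was CD34- CD49f+ Sca-1+. The mice labelled Msx2-KO lack a functional Msx2 gene in every tissue, through a neo cassette placed ahead of exon 2, and had no other allele or treatment in the labels. How many mice stand behind a library is not given in the sources used here, so the p-values measure only the spread between these libraries. Age ran with genotype in HFSCs and not in EpdSCs, so any effect of age enters the difference and cannot be told apart from it. By the numbers in the library names, the Msx2-KO HFSC and WT EpdSC libraries form 1 consecutive series and the other 4 libraries do not belong to it. The series holds exactly the libraries that enter the difference with a plus sign, and this too cannot be told apart from it.

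HFSCs reside in the bulge of the hair follicle, where they rest through telogen and later rebuild the follicle, whereas EpdSCs lie in the basal layer between follicles and continually renew the epidermis. A basal cell that leaves this layer switches from Krt5 and Krt14 to the suprabasal keratins Krt1 and Krt10, builds desmosomes and finally forms the cornified envelope. Msx2 encodes a homeodomain transcription factor of skin appendages, and mice without it lose and regrow their hair in cycles. The HFSC transcription factor Lhx2 read between 356 and 574 CPM in the 4 HFSC libraries and between 0.289 and 3.79 in the 4 EpdSC libraries. It was looked up after other values were known, and is 1 gene compared across separately made tables. The 22 measured HFSC identity genes together summed to 23253 and 21504 in WT HFSCs and 10990 and 13579 in WT EpdSCs. In Msx2-KO these sums were 15536 and 16616 in HFSCs and 15804 and 19766 in EpdSCs, so they did not set the cell types apart there. The sorting markers Cd34 and Ly6a were not among the genes shared by both tables and were not analysed. Msx2 itself read 16.4 and 4.78 CPM in WT HFSCs and 10.9 and 9.94 in Msx2-KO HFSCs. In EpdSCs it read 5.84 and 8.54 in WT against 6.82 and 1.82 in Msx2-KO. The groups overlapped in both cell types, with changes of 0.19 ± 0.93 (SE) in HFSCs and -0.78 ± 0.93 in EpdSCs. By RNAscope the study saw no Msx2 signal in Msx2-KO skin, whereas these libraries show no such loss of Msx2 RNA. Why they differ, and whether the cassette stops transcription of the gene, was not tested. The counts cover the whole gene, so this level does not check the genotype labels, and Msx2-KO stands below for the libraries so labelled.

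Depth and quality were uneven. Total estimated counts ran from 3132974 to 11016659 in HFSC libraries. The EpdSC values had been divided by 1 factor per library before deposit. With that factor estimated from the low values and undone, they summed to 15213651 to 21092650, so these sums are estimates and not read totals. The 12011 shared genes held 1465961 to 3661998 estimated counts in HFSC libraries. Mitochondrial RNA made up 10.5% and 40.9% of WT HFSC counts and 56.6% and 62.1% of Msx2-KO HFSC counts, but 25.7% and 18.3% in WT EpdSCs and 5.13% and 8.22% in Msx2-KO EpdSCs, so it moved in opposite directions with genotype in the 2 cell types. Of the 12011 genes, 9243 and 10370 were above 0 in the Msx2-KO HFSC libraries and 10700 in Msx2-KO EpdSC replicate 1, against 11801 to 11982 in the other 5 libraries. Within a group, the median absolute log2 gap between the 2 replicates was 0.33 in WT HFSCs and 0.215 in WT EpdSCs, but 1.07 in Msx2-KO HFSCs and 0.949 in Msx2-KO EpdSCs. Whether depth, mitochondrial share or gene detection had a part in the differences below was not tested.

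Some genes were called in both cell types, in the same or in opposite directions. A gene was called at an adjusted p under 0.05 and a log2 value over 1 in size (limma, 8 libraries in 1 model). In HFSCs 105 genes rose (0.874% of those tested) and 244 fell (2.03%) in Msx2-KO, and in EpdSCs 425 rose (3.54%) and 1425 fell (11.9%). The difference between the cell types was called for 576 genes in the positive direction (4.8%) and 220 in the negative (1.83%). Over all 12011 genes, 349 were called in HFSCs and 1850 in EpdSCs. In both cell types 90 genes were called (0.749% of all genes). That is 25.8% of the HFSC calls and 4.86% of the EpdSC calls, each above the share called over all genes. Among them, 15 rose in both (0.125% of all genes), 43 fell in both (0.358%), 29 rose in HFSCs and fell in EpdSCs (0.241%), and 3 fell in HFSCs and rose in EpdSCs (0.025%). By sign alone, 1612 of the 12011 genes were higher and 4854 lower in both cell types, 3345 were higher in HFSCs and lower in EpdSCs, and 2196 the reverse. Across genes, which are not independent replicates, the HFSC and EpdSC changes had a Pearson's r of -0.0333 and a Spearman's rho of -0.0238.

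Most positive differences came from the EpdSC side. Of the 576, 446 were called in EpdSCs alone, 38 in HFSCs alone, 61 in neither cell type, 29 in both with opposite signs and 2 in both with the same sign. The 2 were Scd1, the main fatty acid desaturase of the sebaceous gland, and the ribosomal protein gene Rps3a1, which rose in both cell types and more in HFSCs. In 454 of the 576 the 2 changes had opposite signs. The 220 negative differences included 119 genes called in EpdSCs alone, 47 in HFSCs alone, 51 in neither and 3 in both, and 188 of them had opposite signs.

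**Figure D1:**
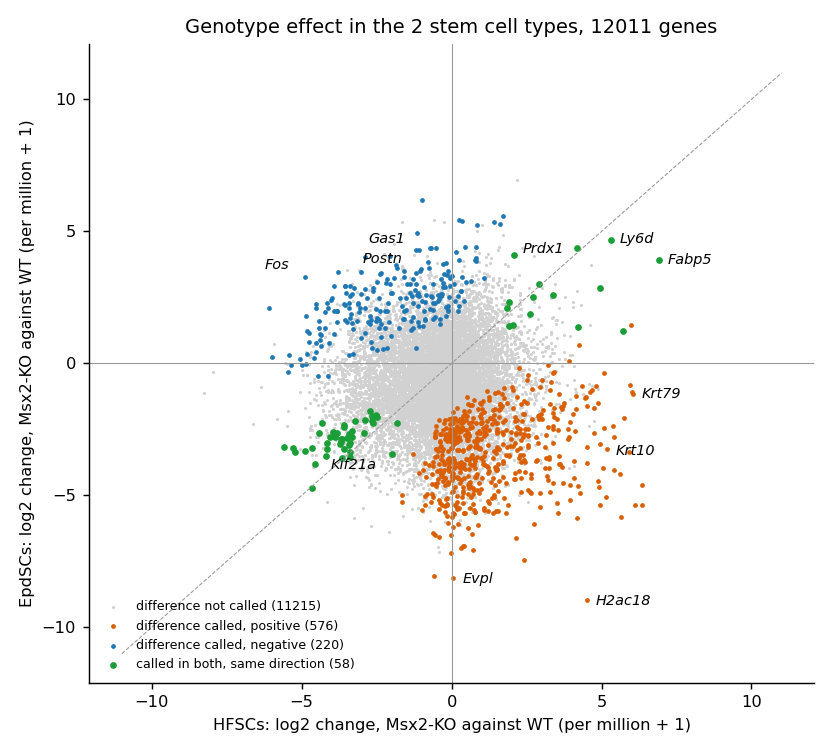
Each point is 1 of 12011 genes, with its log2 change from WT to Msx2-KO in HFSCs on the horizontal axis and in EpdSCs on the vertical axis, and the dashed line marks equal change. The 576 positive differences (orange) lie below the line and the 220 negative ones (blue) above it, while the 58 genes called in both in the same direction (green, drawn on top, 2 of them also positive differences) lie at the lower left and upper right.

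The counts depended on the scaling and on the libraries. The median change over all genes was -0.26 in HFSCs and -0.85 in EpdSCs, a median difference of 0.43. With trimmed-mean (TMM) scaling the medians became -0.44, -0.27 and -0.30, and 294 positive and 416 negative differences were called, so the positive share fell from 72.4% to 41.4% of calls, and the higher share of EpdSC calls went from 23% to 47.9%. Of the calls made with total scaling, 294 of 576 positive and 217 of 220 negative ones were also called with TMM scaling. With either WT HFSC library left out, 4 or 2 positive differences and 0 negative ones were called and 0 genes in HFSCs, with either WT EpdSC library left out 0 differences were called, and with any Msx2-KO library left out there were more, from 916 to 2293 positive. A fit of each cell type alone called 0 genes in HFSCs, and so did edgeR, against 2372 at an unadjusted p under 0.05 in the limma model and 1066 called by DESeq2. edgeR called 184 positive and 313 negative differences, and DESeq2 914 and 1252. Of the calls reported here, 145 of 576 positive and 33 of 220 negative differences were made by limma and by each of 10 other fits that kept all 8 libraries, TMM, quantile, edgeR and DESeq2 included.

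**Figure D2:**
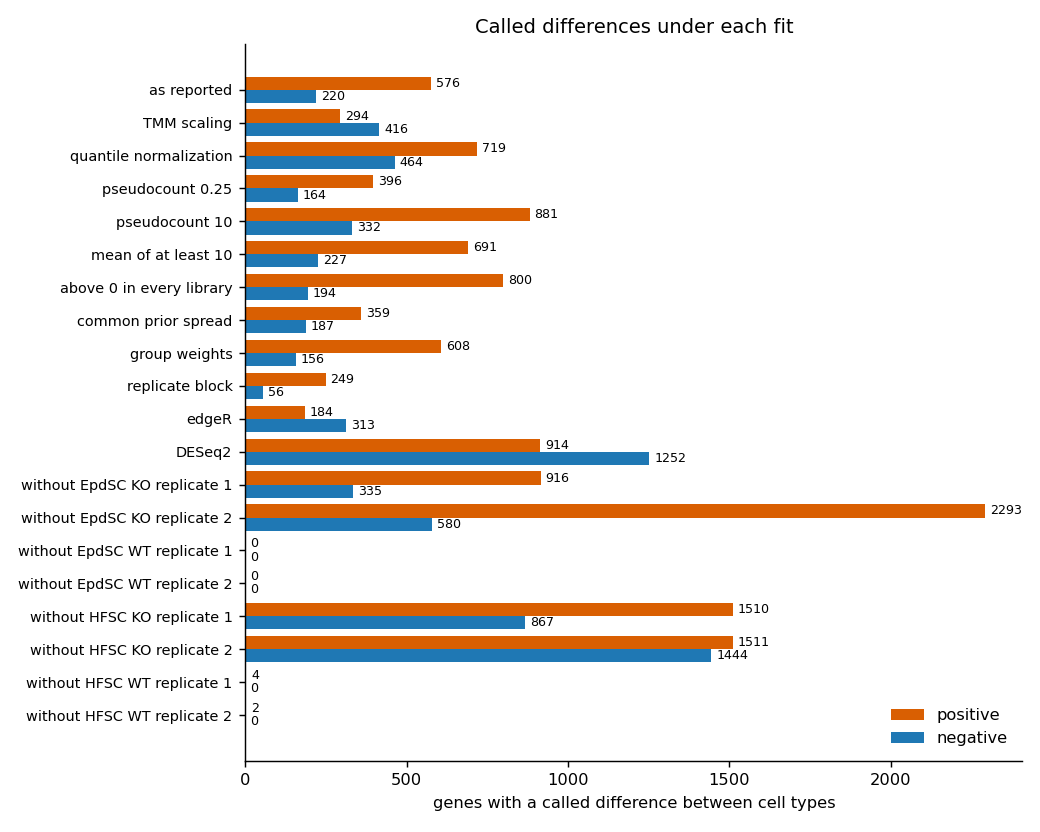
Bars give the number of genes with a called difference between the cell types, positive (orange) and negative (blue), as reported and under each other fit. The counts are 0 to 4 whenever a WT library is left out, and positive calls outnumber negative ones as reported (576 and 220) but not with TMM scaling (294 and 416), edgeR (184 and 313) or DESeq2 (914 and 1252).

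Of 32 suprabasal markers measured, 7 rose in Msx2-KO HFSCs (0.874% of all genes did). In Msx2-KO EpdSCs 8 fell (11.9% of all genes) and 1, Ly6d, rose (3.54%). Krt10, the type I keratin of suprabasal cells (gene at chr11:99385254-99389364, GRCm38, minus strand), read 80.8 and 39.4 CPM in WT HFSCs and 1012 and 4230.2 in Msx2-KO HFSCs. In EpdSCs it read 15851 and 10793 in WT against 741 and 2518 in Msx2-KO. No Msx2-KO library overlapped the WT range in either cell type. Krt10 rose by 5.17 ± 0.81 in HFSCs (adjusted p = 0.0444) and fell by 3.26 ± 0.81 in EpdSCs (adjusted p = 0.0364), a difference of 8.43 ± 1.14 (adjusted p = 0.0147). With TMM scaling the HFSC rise and the difference were called, but the EpdSC change of -2.55 was not. Its partner Krt1 rose in HFSCs, from 47.4 and 17.1 to 614 and 2470 CPM, and stood at 9926 and 7603 in WT against 865 and 3196 in Msx2-KO EpdSCs, a change of -2.38 ± 0.85 that did not pass the test by itself (adjusted p = 0.096). Its difference was 7.77 ± 1.20 (adjusted p = 0.0207).

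The 200 bases ahead of the Krt10 start are shown because Krt10 was the most abundant gene called in opposite directions. They end 1 base before the annotated start and come from RefSeq (GRCm38.p6, chr11:99389365-99389564, minus strand). Capitals mark exact matches, on either strand, to the TATA box (TATAAA), the CCAAT box (CCAAT), the AP-1 site (TGANTCA) and the core bound by Msx homeodomains (TAATTG). Among 9542 genes with a RefSeq promoter of 250 bases before to 50 after the start, 6.78% held TATAAA, 39.4% CCAAT, 4.72% TGANTCA and 4.37% TAATTG. In the Krt10 stretch a TATA box begins 26 bases and a CCAAT box 141 bases before its end.
Krt10: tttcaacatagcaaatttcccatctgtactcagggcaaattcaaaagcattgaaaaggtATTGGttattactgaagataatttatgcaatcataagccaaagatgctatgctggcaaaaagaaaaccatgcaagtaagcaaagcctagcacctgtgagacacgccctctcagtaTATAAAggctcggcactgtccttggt

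Of the 32 suprabasal markers, 11 had a positive and 0 a negative called difference (4.8% and 1.83% of all genes). Their medians were 2.45 in HFSCs, -1.92 in EpdSCs and 3.93 for the difference, against -0.26, -0.85 and 0.43 over all genes. In 20 of them both Msx2-KO HFSC libraries were above both WT libraries (21.5% of all genes were) and in 3 below (28% of all genes). In EpdSCs, 5 had both Msx2-KO libraries above both WT libraries (21.5% of all genes) and 21 below (52.3%). Ivl, which encodes the envelope protein involucrin, read 2.79 and 2.73 in WT against 42.3 and 34.8 in Msx2-KO HFSCs, but 43.3 and 23.2 in WT against 0.116 and 0.773 in Msx2-KO EpdSCs. Its difference was 7.93 ± 1.12. Dsc1, the desmocollin of differentiated cells, went from 4.95 and 0.682 to 32.2 and 115 in HFSCs and from 69.4 and 41.4 to 0.52 and 1.16 in EpdSCs, a difference of 9.21 ± 1.43. Abca12, the lipid transporter that fills lamellar granules of the granular layer, was called in both: it rose from 10.5 and 10.9 to 138 and 166 in HFSCs and fell from 336 and 240 to 8.03 and 16.0 in EpdSCs, a difference of 8.22 ± 0.70 (adjusted p = 0.00575). Flg, which encodes filaggrin, rose in HFSCs by 4.49 ± 0.89 but was at or under 2.49 CPM in every EpdSC library, and its difference of 5.76 ± 1.26 passed (adjusted p = 0.0435). The summed level of the 32 markers was 2833 and 4958 in WT against 5394 and 14459 in Msx2-KO HFSCs, and 46739 and 32542 in WT against 30549 and 16646 in Msx2-KO EpdSCs, so it did not overlap between genotypes in either cell type. Ly6d, a member of the list that rose in both cell types, made up 18707 of the 30549 in Msx2-KO EpdSC replicate 1. How far suprabasal cells in the sorts took part was not tested, and in bulk RNA fewer cells of a type and less RNA per cell cannot be told apart.

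Genes of the upper follicle and the sebaceous gland also had positive medians in HFSCs and negative ones in EpdSCs. Of 12 upper follicle and infundibulum markers, 4 had a positive difference and 0 a negative one (4.8% and 1.83% of all genes). Their medians were 1.22 in HFSCs and -1.72 in EpdSCs. Krt79, a keratin of the gland duct and infundibulum, was at 37.1 and 11.6 in WT HFSCs and at 1464 and 1383 in Msx2-KO HFSCs, while EpdSCs read 195 and 265 in WT against 183 and 61.2 in Msx2-KO. It rose by 6.02 ± 0.66 in HFSCs, its change in EpdSCs of -1.09 ± 0.66 did not pass, and the difference was 7.12 ± 0.93. Krt17 fell in EpdSCs, from 298 and 249 to 3.52 and 38.0, and read 277 and 498 in WT against 1582 and 1553 in Msx2-KO HFSCs, a difference of 6.44 ± 1.25. Defb6, a beta-defensin, had a difference of 6.70 ± 1.17. Among 20 sebaceous lipid genes, 9 had a positive and 0 a negative difference, with medians of 2.28 in HFSCs and -0.93 in EpdSCs. The EpdSC median was near the -0.85 of all genes. Both Msx2-KO EpdSC libraries lay below both WT libraries for 8 of the 20 (52.3% of all genes) and above for 5 (21.5%). The EpdSC sums overlapped, at 8612 and 7555 in WT against 9212 and 3773 in Msx2-KO. The HFSC sums did not, at 6391 and 6661 against 18899 and 13514.5. With TMM scaling 5 differences were positive and 0 negative. Elovl6, a fatty acid elongase, rose in HFSCs from 44.5 and 59.4 to 1405 and 1016 and stood at 45.9 and 47.6 in WT against 5.09 and 39.6 in Msx2-KO EpdSCs. Its difference was 6.11 ± 1.14. Far2, which makes the fatty alcohols of wax, went from 5.21 and 8.62 to 288 and 125 in HFSCs and was under 3.2 CPM in all EpdSC libraries. The 22 cholesterol synthesis genes had positive medians in both cell types, of 1.09 in HFSCs and 0.67 in EpdSCs.

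**Figure D3:**
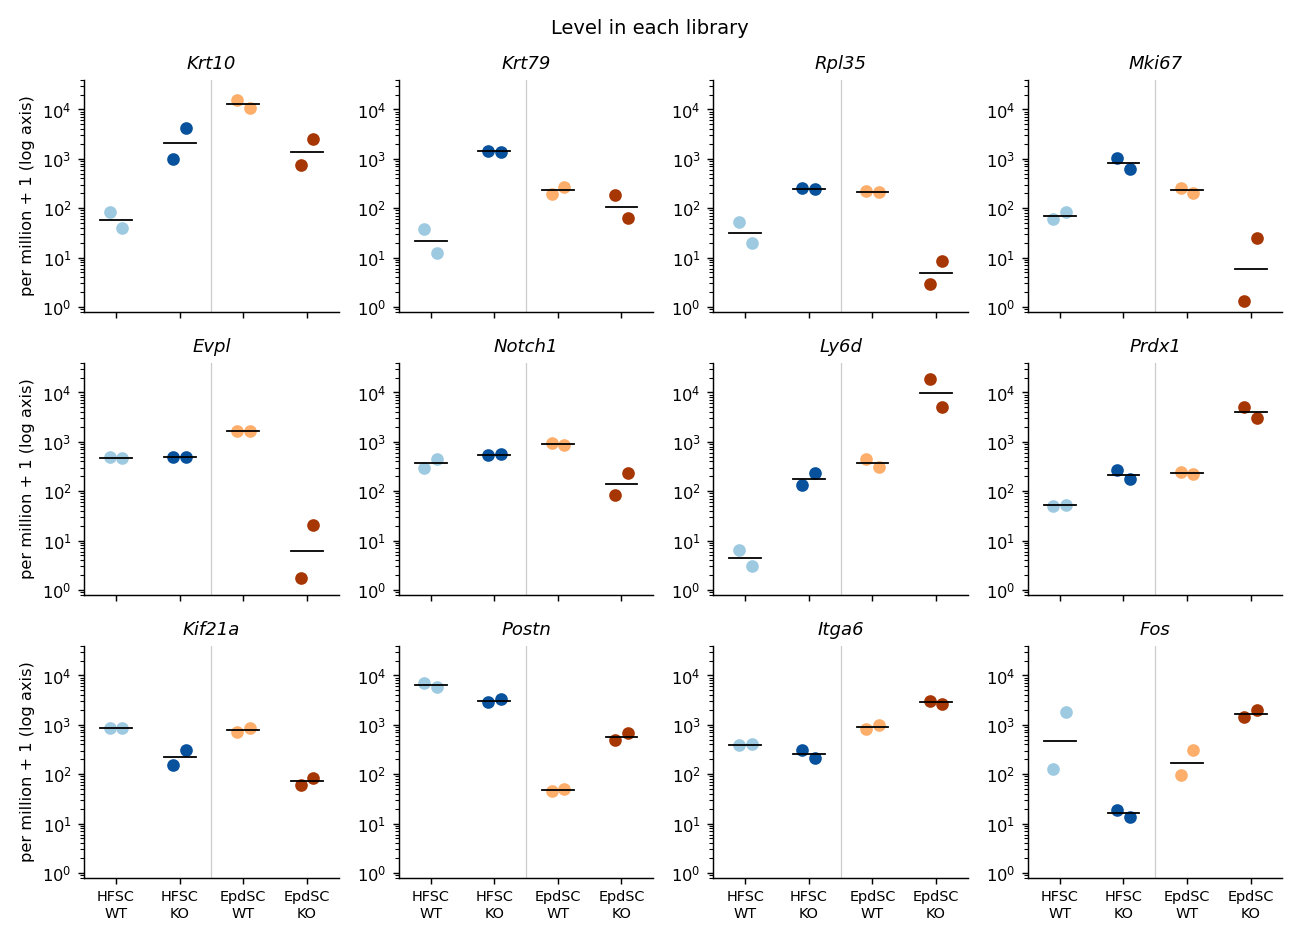
Dots give the level of 12 genes in each library, in CPM over the shared genes plus 1 on a log axis, with a line at the mean of the log values of the 2 libraries of a group. Krt10, Rpl35 and Mki67 were higher in Msx2-KO than WT HFSCs and lower in Msx2-KO than WT EpdSCs, Ly6d and Prdx1 were higher and Kif21a lower in Msx2-KO in both, and Postn, Itga6 and Fos were lower in Msx2-KO HFSCs and higher in Msx2-KO EpdSCs; since the tables were made separately, levels are compared within a cell type.

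Ribosomal protein genes held the most positive differences by count among the lists described, and theirs was also the list with the most genes measured. By share, lists such as sebaceous lipid genes (9 of 20), desmosome genes (6 of 14) and histones (11 of 26) stood higher. Over all genes 4.8% had a positive difference. Of 83 cytosolic ribosomal protein genes, 29 had a positive and 2 a negative difference, with medians of 1.65 in HFSCs, -1.47 in EpdSCs and 3.32 for the difference. Both Msx2-KO HFSC libraries lay above both WT libraries for 64 of the 83 (21.5% of all genes did), and both Msx2-KO EpdSC libraries lay below both WT libraries for 50, where 52.3% of all genes did. With TMM scaling 20 positive and 2 negative differences were called in this list. Among those called in both cell types with opposite signs were Rpl13a, Rpl17, Rpl41 and Rps25. Rpl35, of the large subunit, read 51.3 and 18.5 in WT against 256 and 240 in Msx2-KO HFSCs, and it fell in EpdSCs from 217 and 209 to 1.87 and 7.47, a difference of 8.40 ± 0.96 (adjusted p = 0.0114). Rps25, of the small subunit, rose from 25.1 and 27.4 to 228 and 180.2 in HFSCs and fell from 264 and 237 to 71.3 and 45.0 in EpdSCs. Its difference was 5.03 ± 0.54, and that of Rpl17 was 10.94 ± 1.42. Genes of this family have near-identical processed copies in the genome between which reads could be split, so values of single members, and that of the copy Rps18-ps6 (difference 10.30 ± 1.54), are uncertain. In the summed level the EpdSC groups overlapped, at 37131 and 32599 in WT against 40457 and 23918 in Msx2-KO, and members lay on both sides there: 17 of the 83 had both Msx2-KO EpdSC libraries above both WT libraries and 7 rose. The HFSC sums did not overlap, at 8146 and 7610.1 in WT against 30557 and 23143 in Msx2-KO.

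Nuclear genes for oxidative phosphorylation had medians of the same signs. Of 77, 14 had a positive and 1 a negative difference (4.8% and 1.83% of all genes). The medians were 1.04 in HFSCs and -1.68 in EpdSCs. Atp5mpl, a small subunit of ATP synthase, rose in HFSCs from 5.26 and 4.78 to 104 and 98.3 and fell in EpdSCs from 56.8 and 47.7 to 2.89 and 3.31, a difference of 7.78 ± 0.90. Cox7b, a subunit of cytochrome c oxidase, also changed in both, with a difference of 5.61 ± 0.74. Ndufa5, of complex I, fell in EpdSCs from 26.6 and 23.2 to 0.289 and 0.828 and read 29.7 and 12.3 in WT against 109 and 82.9 in Msx2-KO HFSCs. The mitochondrially encoded RNAs were left out of the scaling, and their share of counts, given above, also went up in Msx2-KO HFSCs and down in Msx2-KO EpdSCs.

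**Figure D4:**
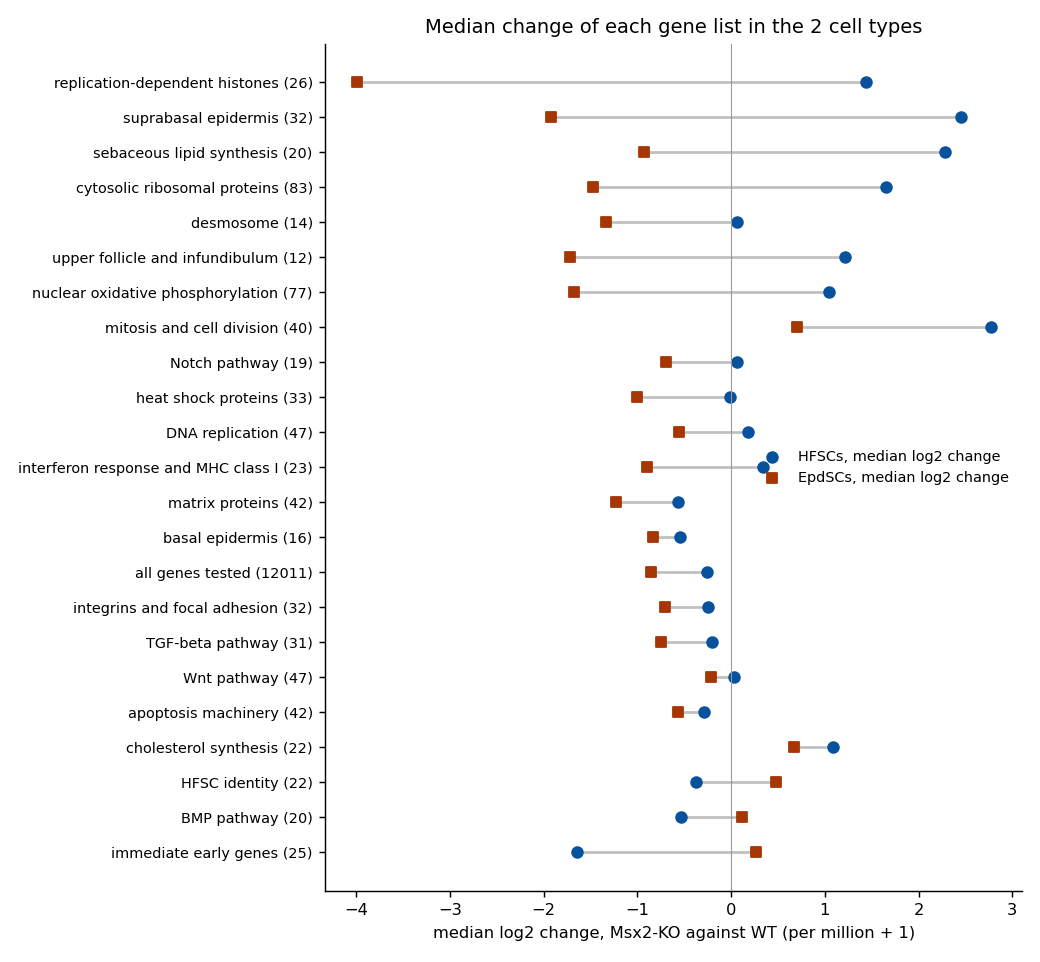
For each gene list with at least 10 measured genes (number in brackets), the circle is the median log2 change from WT to Msx2-KO in HFSCs and the square that in EpdSCs, with the lists ordered by the median difference. Histones (1.44 and -3.99), suprabasal genes (2.45 and -1.92), ribosomal proteins (1.65 and -1.47) and oxidative phosphorylation genes (1.04 and -1.68) had medians of opposite sign, mitosis genes (2.77 and 0.70) were positive in both, and immediate early genes were at -1.64 and 0.27.

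Replication-dependent histones had the widest gap of the lists with at least 10 measured genes, with medians of 1.44 in HFSCs, -3.99 in EpdSCs and 5.61 for the difference. Of 26 measured, 11 had a positive and 0 a negative difference (4.8% and 1.83% of all genes), and 15 fell in EpdSCs (11.9%). H3c15, a histone H3 gene, rose in HFSCs from 1.02 and 1.32 to 246 and 125 and was at 49.7 and 33.95 in WT EpdSCs but at 0 and 0.0552 in Msx2-KO EpdSCs. The list did not hold H1, H2A and H2B genes under symbols such as H1f4, H2ac18 and H2bc4. Some that met the naming rule, H2ac18, H2ac15 and H1f4, are given next. H2ac18, an H2A gene, rose in HFSCs from 3.47 and 27.2 to 241 and 269, and in EpdSCs went from 500.2 and 645 to 0 and 0.32, the largest difference among the named genes at 13.46 ± 1.19. H2ac15 was at 53.1 and 30.5 in WT EpdSCs and at 0 in both Msx2-KO EpdSC libraries, at least 247-fold lower by a floor of 3 counts per library. Hist1h4n, of the list of 26, was likewise at 0 in both and at least 92.3-fold lower. H1f4, a linker histone, stood at 134 and 128 in WT against 720 and 672 in Msx2-KO HFSCs, while in EpdSCs it fell from 392 and 276 to 0 and 2.6. Histone genes of 1 type are near-identical, so reads can be split between copies and single members are uncertain. The summed level of the 26 genes was 122 and 119 in WT against 1138 and 945 in Msx2-KO HFSCs, and 652 and 523 in WT against 5.49 and 10.3 in Msx2-KO EpdSCs. In Msx2-KO EpdSC replicates 1 and 2, 18 and 6 of the 26 were at 0, against 0 of 26 in both WT EpdSC libraries. Transcripts of these genes are not polyadenylated, and whether this had a part in the values was not tested.

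The medians of mitosis genes, unlike those of histones, were positive in both cell types. Of 40 mitosis genes, 3 had a positive difference and 0 a negative one, a share near the 4.8% of all genes. The medians were 2.77 in HFSCs and 0.70 in EpdSCs. The 3 were Mki67, Cenpf and Top2a, which were lower in Msx2-KO EpdSCs, unlike the median of the list. Mki67, the proliferation antigen Ki-67, was at 58.8 and 82.5 in WT against 1052 and 615 in Msx2-KO HFSCs and fell in EpdSCs from 251 and 206 to 0.347 and 24.1, a difference of 8.81 ± 1.65. Cenpf, a kinetochore protein, rose in HFSCs from 18.9 and 27.3 to 172 and 283 and fell in EpdSCs from 66.1 and 66.4 to 10.4 and 13.2. Top2a, topoisomerase II alpha, rose in HFSCs from 30.3 and 21.1 to 179 and 232 and read 74.2 and 54.2 in WT against 24.7 and 45.7 in Msx2-KO EpdSCs, a difference of 3.85 ± 0.69. In contrast, Ube2c, the ubiquitin-conjugating enzyme of the anaphase-promoting complex, rose in both cell types. Both Msx2-KO EpdSC libraries were above both WT libraries for 22 of the 40 genes and below for 9 (21.5% and 52.3% of all genes), while in HFSCs these counts were 31 and 0 (21.5% and 28%). The 47 DNA replication genes had medians of 0.18 in HFSCs and -0.56 in EpdSCs, or -0.02 and -0.05 with TMM scaling.

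Differences were also called among desmosome and adhesion genes. Of 14 desmosome genes, 6 had a positive and 1, Perp, a negative difference. The median change was 0.06 in HFSCs (-0.15 with TMM scaling) and -1.34 in EpdSCs. Their summed level was lower in Msx2-KO in both cell types, without overlap. In HFSCs it was 23196 and 22688.5 in WT against 15223 and 20455 in Msx2-KO. In EpdSCs it was 37568 and 36920 in WT against 29681 and 22814 in Msx2-KO. Evpl, the envelope and desmosome linker envoplakin, read 484 and 466 in WT against 488 and 502 in Msx2-KO HFSCs but fell in EpdSCs from 1658 and 1693 to 0.751 and 19.9. Its difference was 8.17 ± 1.37. Ppl, its partner periplakin, fell in EpdSCs from 2665 and 2706 to 15.6 and 91.1, a difference of 6.32 ± 0.98. Of 32 integrin and focal adhesion genes 4 had a positive and 1 a negative difference, or 1 and 1 with TMM scaling. Over all genes 4.8% were positive and 1.83% negative. Their summed level was also lower in Msx2-KO in both cell types, without overlap. In HFSCs it was 41711 and 39006 in WT against 21670 and 21694 in Msx2-KO, and in EpdSCs 17171 and 24246 against 8030 and 6220. For 15 of the 32, both Msx2-KO HFSC libraries lay below both WT libraries (28% of all genes), and for 6 above (21.5%). Tln1, which encodes talin, fell in EpdSCs from 299 and 385 to 0.578 and 16.0 and read 398 and 383 in WT against 414 and 307 in Msx2-KO HFSCs, while Flna, filamin A, fell in EpdSCs from 612 and 796 to 57.1 and 58.8. Their differences were 5.91 ± 1.34 and 3.48 ± 0.57, and neither was called with TMM scaling. Among 42 matrix genes 6 had a positive difference, with Lama5, the laminin alpha 5 chain of basement membranes, at 4.82 ± 0.83, and 1 a negative one, Postn.

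Several signalling receptors and cofactors had called differences. All 3 Notch receptors called, Notch1, Notch2 and Notch3, had positive differences (3.29 ± 0.69, 4.23 ± 0.74 and 4.04 ± 0.66) among 19 Notch pathway genes, of which 0 were negative. Notch1 fell in EpdSCs from 932 and 875.8 to 82.6 and 229 and read 296 and 448 in WT against 535 and 561 in Msx2-KO HFSCs. Notch3 rose in HFSCs from 7.97 and 10.9 to 50.5 and 67.9, and its EpdSC change of -1.51 ± 0.47 was not called. With TMM scaling the differences of Notch1 and Notch2 were not called, and the list held 1 positive and 1 negative difference. Of 47 Wnt pathway genes 5 had a positive difference, among them the co-receptors Lrp5 (6.10 ± 0.71) and Lrp4 (6.78 ± 1.5) and the corepressors Tle1 (3.34 ± 0.68) and Tle3 (3.07 ± 0.47), and 1 a negative one, the secreted inhibitor-related gene Dkk3. Over all genes 4.8% had a positive difference, and with TMM scaling 2 of the 47 were positive and 3 negative, Lrp4 and Tle1 no longer being called. Tle3 rose in HFSCs from 76.8 and 66.2 to 317 and 284, while Lrp5 fell in EpdSCs from 197 and 235 to 2.2 and 6.29. Of 31 TGF-beta pathway genes, the binding proteins Ltbp3 and Ltbp4 had positive differences (3.21 ± 0.53 and 4.15 ± 0.57). Smad4, the common mediator, had a negative one of -3.79 ± 0.89 (adjusted p = 0.0498). These counts of 2 and 1 are near the shares over all genes, 4.8% positive and 1.83% negative. Smad4 rose in EpdSCs from 75.8 and 76.9 to 296 and 1090.0 and read 81.7 and 71.6 in WT against 56.2 and 28.7 in Msx2-KO HFSCs. Of 20 BMP pathway genes 1 was called, where 1.83% of all genes had a negative difference. It was Id2, a target that blocks bHLH factors, with a difference of -4.49 ± 1.00: it rose in EpdSCs from 2.81 and 5.03 to 45.5 and 30.5. Of 33 heat shock genes 6 had a positive difference, Hspe1, the mitochondrial co-chaperonin, being the 1 that rose in HFSCs (from 6.42 and 2.73 to 89.6 and 72.9). With TMM scaling 2 of the 33 were called, and over all genes 4.8% had a positive difference. In the list of 23 interferon and MHC class I genes, 1 difference was called, that of Parp14 (3.10 ± 0.73), a share near the 4.8% of all genes, and with TMM scaling 0 were.

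Of the 220 negative differences, 119 were called in EpdSCs alone and 47 in HFSCs alone. Among the former was Postn, which encodes the matrix protein periostin (chr3:54361109-54391037, plus strand). It read 7001 and 5725 CPM in WT against 2875 and 3312 in Msx2-KO HFSCs. In EpdSCs it read 45.6 and 48.8 in WT against 489 and 682 in Msx2-KO. The genotypes did not overlap in either cell type and lay in opposite order. It rose by 3.58 ± 0.30 in EpdSCs (adjusted p = 0.00198), its change of -1.04 ± 0.30 in HFSCs did not pass (adjusted p = 0.11), and the difference was -4.62 ± 0.43 (adjusted p = 0.00704). The stretch ahead of its start (GRCm38.p6, chr3:54360907-54361106, plus strand) is shown for comparison with that of Krt10, with the same marking, and holds a TATA box that begins 26 bases before its end.
Postn: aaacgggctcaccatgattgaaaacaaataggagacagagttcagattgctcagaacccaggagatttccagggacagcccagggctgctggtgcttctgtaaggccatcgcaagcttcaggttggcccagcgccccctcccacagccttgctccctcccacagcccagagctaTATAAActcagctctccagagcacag

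Among 22 HFSC identity genes 3 had a negative difference and 0 a positive one (1.83% and 4.8% of all genes). Each of the 3 rose in EpdSCs while its HFSC change did not pass. Gas1, a growth arrest and Hedgehog co-receptor gene, rose in EpdSCs from 43.1 and 46.0 to 941 and 846 and read 319 and 549 in WT against 108 and 352 in Msx2-KO HFSCs, a difference of -5.39 ± 0.79. Itga6, the alpha 6 integrin read by the CD49f sort gate in both cell types, rose in EpdSCs from 822 and 996 to 3104 and 2692 and read 385 and 400 in WT HFSCs against 305 and 213 in Msx2-KO HFSCs, a difference of -2.30 ± 0.43 (adjusted p = 0.0306). Dkk3 differed by -2.53 ± 0.57. The median of the list was -0.37 in HFSCs, 0.48 in EpdSCs and -0.03 for the difference, or -0.92 for the difference with TMM scaling.

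Of 25 immediate early genes 2 had negative differences (1.83% of all genes did). Fos, of the AP-1 factor, was at 126 and 1823 in WT against 18.02 and 12.7 in Msx2-KO HFSCs, and at 95.2 and 305 in WT against 1420.1 and 1966 in Msx2-KO EpdSCs. The groups did not overlap, but the 2 WT HFSC libraries lay far apart, and neither change passed by itself (adjusted p = 0.0645 and 0.0888), while the difference of -8.18 ± 1.60 did (adjusted p = 0.0335). Klf6 rose in EpdSCs from 210 and 221.7 to 1443 and 1066, a difference of -2.60 ± 0.48. The summed level of the 25 genes was 3965 and 15248.5 in WT against 3757 and 2285 in Msx2-KO HFSCs. In EpdSCs it was 3324 and 4613 in WT against 6340.4 and 13549 in Msx2-KO.

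Genes called in both cell types and lower in Msx2-KO HFSCs but higher in Msx2-KO EpdSCs numbered 3, of which 2 met the naming rule. Cdk9, the kinase that releases paused RNA polymerase II, fell in HFSCs from 53.6 and 50.5 to 10.4 and 10.5 and rose in EpdSCs from 51.2 and 55.2 to 193 and 240, a difference of -4.21 ± 0.58 (adjusted p = 0.0159). Zfp954, a zinc finger gene, was at 16.4 and 12.3 in WT HFSCs and 0 in both Msx2-KO HFSC libraries, at least 11.6-fold lower, and rose in EpdSCs from 20.9 and 21.4 to 222.1 and 130. Some other genes with large negative differences also had both Msx2-KO HFSC libraries at 0. Sncg, gamma-synuclein, was at least 57.2-fold lower there and Spg21 at least 22.7-fold lower. Vhl, the ubiquitin ligase subunit that targets HIF, and the galactosyltransferase gene B4galt7 were at least 5.3-fold and 8.78-fold lower. The HFSC changes of Vhl (-2.88 ± 0.87, limma adjusted p = 0.12) and B4galt7 (-3.57 ± 0.78, adjusted p = 0.0575) were not called, whereas their EpdSC changes were. Vhl rose in EpdSCs from 2.6 and 6.45 to 137 and 51.5, and B4galt7 from 14.3 and 13.9 to 168 and 77.5. Ghitm, of the mitochondrial inner membrane, fell in HFSCs from 64.1 and 60.03 to 0 and 6.63 and stood at 81.3 and 84.8 in WT against 393 and 325 in Msx2-KO EpdSCs. Slc49a4, at -7.25 ± 1.42, and the multi-copy or overlapping genes Commd1b (-7.21 ± 1.12) and F8a (-6.50 ± 1.30) complete those named, the latter pair uncertain for shared reads, and Fam177a2 (-7.04 ± 2.06, adjusted p = 0.0828) was not called.

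A smaller set rose in both cell types. Ly6d, a surface protein of early differentiating keratinocytes, ranked first by the smaller of its changes in the 2 cell types. It went from 5.57 and 2.05 to 131 and 234 in HFSCs and from 448 and 315 to 18707 and 4993 in EpdSCs, log2 changes of 5.30 ± 0.68 and 4.68 ± 0.68. Fabp5, the epidermal fatty acid-binding protein, rose from 4.83 and 7.48 to 1010.0 and 710.2 in HFSCs and from 128 and 69.7 to 5209 and 395 in EpdSCs. Glycolytic and mitochondrial enzymes were among the others: Pgk1, phosphoglycerate kinase, rose from 8.51 and 9.99 to 80.3 and 54.2 in HFSCs and from 30.3 and 31.8 to 236 and 144 in EpdSCs, and Cs, citrate synthase, from 65.0 and 56.6 to 247 and 212 and from 252 and 219.1 to 1450 and 948. Prdx1, a peroxide-reducing enzyme of the antioxidant response (chr4:116685544-116700822, plus strand), rose by 2.07 ± 0.36 in HFSCs and by 4.11 ± 0.36 in EpdSCs, from 49.0 and 52.1 to 265 and 176 and from 244 and 219.9 to 5145 and 3108. Its difference of -2.03 ± 0.51 just missed (adjusted p = 0.0572) and was called with TMM scaling at -2.95, where its HFSC change was not called. Ube2c rose from 2.75 and 0.682 to 59.5 and 33.7 in HFSCs and from 7.25 and 7.02 to 201 and 138 in EpdSCs. Ubald2, Sdr16c6, Slc39a11 and Mob3b complete the 10 named of the 15, with HFSC changes of 2.63 to 4.95 and EpdSC changes of 1.87 to 3.02. With TMM scaling 6 of the 15 were also called higher in both, and the HFSC change was not called for Prdx1, Pgk1, Cs, Ube2c, Slc39a11 and Mob3b.

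The stretches ahead of Prdx1 and Ube2c are shown as those of 2 genes that rose together in both cell types (GRCm38.p6, RefSeq, ending 1 base before the gene start in the tables: chr4:116685349-116685543 and chr2:164769698-164769897, both plus strand). The marking is as above. Prdx1 has 2 matches to TGANTCA, which begin 182 and 76 bases before the end. Ube2c has 6 matches to CCAAT on either strand, which begin 197, 155, 152, 124, 57 and 26 bases before the end, the second and the third overlapping. A match is a description of the letters and says nothing of binding.
Prdx1: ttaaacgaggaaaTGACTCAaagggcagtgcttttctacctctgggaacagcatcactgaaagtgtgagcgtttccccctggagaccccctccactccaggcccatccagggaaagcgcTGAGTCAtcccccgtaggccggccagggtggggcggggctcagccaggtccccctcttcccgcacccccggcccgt
Ube2c: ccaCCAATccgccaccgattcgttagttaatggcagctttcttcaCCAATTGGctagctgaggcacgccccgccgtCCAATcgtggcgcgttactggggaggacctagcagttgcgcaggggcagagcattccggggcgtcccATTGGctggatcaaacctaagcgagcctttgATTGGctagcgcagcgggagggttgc

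Of the 43 genes that fell in both, 31 had a mean under 10 CPM over the 8 libraries and 4 reached the mean of 20 set for naming, against 15 of 15 of those that rose in both. Kif21a, a kinesin, fell from 866 and 850 to 153 and 310 in HFSCs and from 704 and 881 to 60.3 and 84.6 in EpdSCs, by 1.97 ± 0.40 and by 3.44 ± 0.40. Golga3, a Golgi protein, fell from 194 and 190 to 51.1 and 55.8 and from 106 and 130 to 21.9 and 25.4. Ccl27b and Gm13306, 2 copies of the keratinocyte chemokine locus whose reads cannot be told apart, both read 161 and 109 in WT against 6.28 and 20.8 in Msx2-KO HFSCs, and 71.2 and 95.4 or 109 in WT and 6.24 to 10.6 in Msx2-KO EpdSCs. Klhl11 was at 57.6 and 63.4 in WT against 0 and 11.1 in Msx2-KO HFSCs and was not called there.

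Genes that the study names for the HFSC niche, skin development and cell death were also followed. The niche and skin development lists were drawn from these same HFSC libraries and are not independent evidence of an HFSC direction. The study reports the cell death genes from both HFSCs and EpdSCs, so that list is not independent for either cell type. Of 6 niche and adhesion genes measured, Postn alone had a called difference. In both Msx2-KO HFSC libraries the other 5 (Ltbp2, Itga3, Angptl2, Fbln1 and Col6a1) lay below both WT libraries, with HFSC changes of -0.97 to -2.05 that did not pass. In EpdSCs Col6a1, Angptl2, Itga3 and Ltbp2 were lower as well, with changes of -1.0 to -2.53, and Fbln1 was higher at 2.15 ± 0.90, none of them called. Among the skin development genes Krt10, Krt1 and Flg had called differences, while Sfn (6.79 ± 2.15, adjusted p = 0.0985) and Krtdap (4.67 ± 1.10, adjusted p = 0.0504) did not. The 5 cell death genes, Bcl2l13, Irak3, Bid, Endog and Prkacb, had differences of -3.34 to 3.97, and limma called 0 of them at the adjusted p, against 2 (Irak3 at 3.70 and Prkacb) at an unadjusted p under 0.05. Prkacb, a catalytic subunit of protein kinase A, rose in EpdSCs from 30.2 and 32.8 to 363 and 207 and read 101.2 and 90.04 in WT against 169 and 37.6 in Msx2-KO HFSCs.

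Markers of other skin cells were hardly measured among the shared genes: 2 of 15 for fibroblasts, 4 of 14 for endothelial cells and pericytes, 8 of 20 for immune cells, 2 of 10 for melanocytes, 2 of 12 for muscle and 0 of 7 for erythrocytes. Only Notch3, listed with pericytes, had a called difference. The 8 immune genes summed to 36.0 and 13.8 in WT against 50.5 and 27.1 in Msx2-KO HFSCs, and to 98.8 and 11.9 in WT against 0.918 and 2.49 in Msx2-KO EpdSCs. The 2 melanocyte genes summed to 428 and 402 in WT against 108 and 90.6 in Msx2-KO HFSCs, and to 40.3 and 31.8 in WT against 6.82 and 81.3 in Msx2-KO EpdSCs. The part of these cells in the differences was not tested.

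Transcript GC content and length moved with the EpdSC change. The longest protein-coding transcript of each gene was taken from GENCODE M21 and found for 11806 of 12011 genes. Genes with a positive difference had a median length of 4506 bases and a GC content of 52.8%, those with a negative difference 2874 bases and 48.7%, and all genes 3207 bases and 50.1%. Over 10 bins of equal size from the poorest to the richest in GC, the median EpdSC change went from -0.42 to -1.71 and the median HFSC change from -0.41 to -0.19, so the median difference went from -0.10 to 1.36. By length, the median difference was 0.83 in the shortest bin, 0.05 in the second and 1.05 in the longest. The longest bin held 159 positive and 8 negative differences of 1181 genes. These values stand beside every positive difference given above, and the part of GC content and length in them was not tested.

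**Figure D5:**
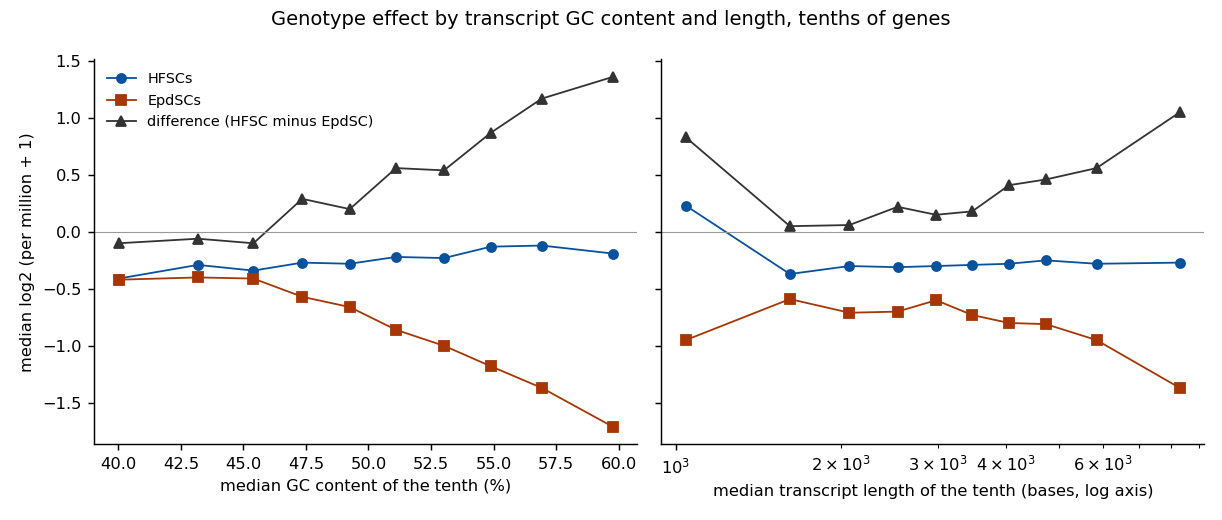
Genes were split into 10 bins of equal size by GC content (left) and length (right, log axis) of their longest coding transcript, and points give the median log2 change from WT to Msx2-KO in HFSCs and EpdSCs and the median difference. The EpdSC median falls from -0.42 to -1.71 with GC content while the HFSC median stays between -0.41 and -0.12.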

How the data were processed

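Stranded total RNA libraries (SMARTer) of sorted cells were sequenced and, per the submitters' processing notes and the study's methods, aligned with STAR 2.7.3a to GRCm38 (mm10) in Partek and quantified per gene. The HFSC file holds estimated counts as the authors deposited them. The EpdSC file holds a signal, estimated counts that the authors divided by 1 factor per library, with weakly expressed genes removed by a rule not given in the sources used here. The authors' own comparisons (fold changes, p-values, means) were not used. Groups came from the labels.

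Genes were joined by symbol, and the 12011 nuclear protein-coding genes of both tables were scaled to a sum of 1000000 per library (CPM). A pseudocount of 1 was added and log2 taken, and limma 3.58.1 (R 4.3.3, trend) was fitted with 4 group means over 8 libraries, with Benjamini-Hochberg adjustment over all 12011 genes. Since EpdSC values are scaled, limma replaced a count test there. Each ratio was formed inside its own table, so a factor per table cancels. Estimates under 0.001 were written as 0, and bounds used a floor of 3 counts per library, which covers counting error only. The fit was also run on simulated data with the same spread in every group. These libraries differ in that respect, so that run does not check the calls reported here. Alternatives were TMM and quantile scaling, other pseudocounts and filters, edgeR 4.0.16, DESeq2 1.42.0 (on rounded values), a replicate block and leaving out libraries.

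Members, lists and tests were chosen with earlier results of these data known. Genes were named if they had a mean of at least 20 CPM and groups that did not overlap, as the 10 largest per direction of each class (filled to 5 with uncalled genes), plus Msx2, Itga6, the genes the study names, and at most 4 called members per list. Lhx2, Scd1, Rps3a1, Perp, Rpl13a, Rpl41 and Rps25 were named after their values were seen. Results of some genes are not reported here.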

Additional observations from a re-analysis of the deposited data

Results flagged for a closer look

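The interaction of genotype and cell type passed the limma test (adjusted p under 0.05) for 77 of the genes named, 59 in the positive and 18 in the negative direction. The values below are log2 differences, the HFSC change minus the EpdSC change, from 2 libraries per group. The widest positive differences were those of H2ac18 (13.46), H3c15 (11.70), H2ac15 (11.47), H2ac19 (11.46), Rpl17 (10.94), Rps18-ps6 (10.30), H3c2 (10.22), H1f4 (9.84) and H2ac13 (9.81). Next came Hist1h2ap (9.57), Hist1h4n (9.44), B430305J03Rik (9.32), Dsc1 (9.21), Olfr77 (9.03), Rpl29 (8.86), Mki67 (8.81), Krt10 (8.43), Rpl35 (8.40) and Abca12 (8.22). They were followed by Evpl (8.17), Cst6 (8.01), Ivl (7.93), Atp5mpl (7.78), Krt1 (7.77), Krt79 (7.12), Dsg1b (6.85), Lrp4 (6.78), Defb6 (6.70) and Krt17 (6.44). Then came Ppl (6.32), Ndufa5 (6.32), Hspe1 (6.20), Elovl6 (6.11), Lrp5 (6.10), Plin2 (6.06), Tln1 (5.91), Flg (5.76), Acaca (5.74) and Far2 (5.70). Smaller positive differences were those of Cox6a1 (5.65), Cenpf (5.62), Cox7b (5.61), Lamb1 (5.48), Lama5 (4.82), Hspa4 (4.55), Notch2 (4.23), Ltbp4 (4.15) and Notch3 (4.04). The smallest were those of Top2a (3.85), Hsf2 (3.74), Hsf1 (3.66), Flna (3.49), Actn4 (3.45), Tle1 (3.34), Notch1 (3.29), Ltbp3 (3.21), Tns3 (3.20) and Parp14 (3.10). The lowest of them was that of Tle3 (3.07). On the negative side were Fos (-8.18), Sncg (-8.16), Slc49a4 (-7.25), Commd1b (-7.21), Vhl (-6.92), Zfp954 (-6.87), Spg21 (-6.64), Ghitm (-6.61), B4galt7 (-6.50) and F8a (-6.50). Further negative differences were those of Gas1 (-5.39), Postn (-4.62), Id2 (-4.49), Cdk9 (-4.21), Smad4 (-3.79), Klf6 (-2.60), Dkk3 (-2.53) and Itga6 (-2.30). With any WT library left out, hardly any of these differences passed, as given for the counts. Reads of the histone, ribosomal protein, Olfr77, B430305J03Rik, Commd1b and F8a genes can be shared with near-identical or overlapping copies, so these values are uncertain.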

How the results depend on the processing

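With 2 libraries per group, 4 residual degrees of freedom and a wide spread between Msx2-KO replicates, the counts of calls depend strongly on the fit. Values are given in the order EpdSC calls, HFSC calls, higher in both, lower in both, negative differences, positive differences, opposite with HFSCs higher, opposite with HFSCs lower, which were 1850, 349, 15, 43, 220, 576, 29 and 3. TMM scaling gave 1709, 209, 11, 18, 416, 294, 14 and 9. Quantile normalization gave 2314, 411, 30, 19, 464, 719, 62 and 18. A pseudocount of 10 gave 2159, 354, 16, 28, 332, 881, 45 and 4, and one of 0.25 left every count within 1.5 times. A mean of at least 10 CPM gave 1962, 34, 3, 0, 227, 691, 8 and 0. Genes above 0 in every library gave 2101, 59, 8, 1, 194, 800, 18 and 0. A common prior spread gave 1463, 626, 9, 77, 187, 359, 39 and 23, and weights per group 2733, 9, 3, 0, 156, 608, 3 and 0. An adjusted p under 0.1 gave 3136, 1025, 49, 168, 571, 1239, 91 and 33. DESeq2 gave 2958, 1066, 82, 59, 1252, 914, 83 and 111, and edgeR 1140, 0, 0, 0, 313, 184, 0 and 0. A fit of each cell type alone, which gives no difference, called 1676 genes in EpdSCs, 0 in HFSCs and 0 in both. Leaving out 1 library at a time gave 9 to 4041, 0 to 3011, 0 to 128, 0 to 558, 0 to 1444, 0 to 2293, 0 to 174 and 0 to 216, where a lone library is taken to vary like the other groups. Leaving out the Msx2-KO library of each cell type with fewer genes above 0, chosen after seeing the data, gave 5365, 5018, 392, 672, 2558, 3931, 750 and 352. The causes were not tested.

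The replicate numbers pair nothing in the labels, and deviations of same-numbered libraries correlated at -0.0289 to 0.0635 across genes. A fit with the number as a block gave 1443, 8, 0, 0, 56, 249, 1 and 0.

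Among the named genes, a reversed sign was met in changes that had not passed the test. The Msx2 change in HFSCs became -0.22 in edgeR and -0.18 in DESeq2 and ran from -0.61 to 0.98 with 1 library left out, and that in EpdSCs became 0.74 with quantile normalization, 0.28 in edgeR and 0.25 in DESeq2. In EpdSCs, quantile normalization gave 0.26 for Col6a1, 0.13 for Flg and 0.10 for Irak3, edgeR 0.01 for Angptl2 and 0.13 for Krtdap, and DESeq2 0.10 for Krtdap. With 1 library left out, Bcl2l13 in EpdSCs ran from -5.22 to 0.25, and in HFSCs Bid ran from -2.95 to 0.99, Endog from -0.67 to 4.83 and Prkacb from -1.32 to 0.82. Quantile normalization gave 0.30 for Bid in HFSCs. With those 2 Msx2-KO libraries left out, Bcl2l13 was at 0.25, Bid at 0.99 and Endog at -0.67.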
